A study of Rattus norvegicus with 12 samples.

Results

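A set of 10 nuclear genes for enzymes that use S-adenosylmethionine (SAM) inside mitochondria was followed in neonatal rat ventricular myocytes (NRVMs), the cultured heart muscle cells of newborn rats. The members were 10 of the 18469 genes in the deposited tables, taken by their symbols: Nsun4 and Tfb1m for ribosomal RNA, Nsun3, Trmt5 and Trmt10c for transfer RNA, Coq3 and Coq5 for coenzyme Q, Ndufaf5 and Ndufaf7 for complex I, and Lias for lipoate. All cells came from Sprague-Dawley rats, received an siRNA and were sequenced as 3 independent biological replicates in each of 4 groups. The siNeg group received the negative control siRNA and no phenylephrine (PE). By the labels, the siNeg.PE group received that siRNA and then PE for 36 h beginning 12 h after transfection. The siSlc25a26 and siSlc25a26.PE groups received an siRNA against Slc25a26 without and with the same PE treatment, again by the labels. PE is an agonist of the alpha-1 adrenergic receptor that drives hypertrophic growth of these cells. The knockdown is transient, and the RNA is that of the whole culture, so fewer cells of a type and less RNA per cell cannot be told apart.

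SAM is made in the cytosol and enters mitochondria through the carrier encoded by Slc25a26. In the matrix it gives methyl groups to the RNAs of the mitochondrial ribosome and to mitochondrial transfer RNAs, to ring positions of coenzyme Q and to a protein of complex I. Lias uses SAM in another way, as the source of the radical with which it inserts sulfur to form lipoate, the cofactor of pyruvate dehydrogenase and related complexes. The heart depends on these products because its respiratory chain supplies most of its energy.

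Promoters are shown first, since several members moved together. RefSeq (GRCr8) held a promoter window of 300 bases, from 250 before to 50 after the transcription start, for 9 of the 10 members, and none for Trmt10c was used here. The 4 stretches below are the 130 bases before the start, 5′ to 3′ on the strand of the gene. Tfb1m (chr1:46566949-46567078, minus strand), Ndufaf5 (chr3:147961482-147961611, plus strand) and Ndufaf7 (chr6:21871966-21872095, minus strand) are among the members that rose with PE under both siRNAs. Trmt5 (chr6:97723400-97723529, minus strand) is among those that did not pass that test under either. Coq3 and Coq5 also rose under both, and Nsun4 and Lias also passed under neither, but their stretches are not printed. Capitals mark a match to a searched motif.
Tfb1m: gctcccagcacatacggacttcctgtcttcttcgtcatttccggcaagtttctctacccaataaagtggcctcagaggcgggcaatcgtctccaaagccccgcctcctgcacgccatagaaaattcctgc
Ndufaf5: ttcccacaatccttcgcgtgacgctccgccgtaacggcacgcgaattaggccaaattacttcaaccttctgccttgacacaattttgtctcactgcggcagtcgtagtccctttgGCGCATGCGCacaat
Ndufaf7: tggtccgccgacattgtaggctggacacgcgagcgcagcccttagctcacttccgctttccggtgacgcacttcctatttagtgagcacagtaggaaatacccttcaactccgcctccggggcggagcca
Trmt5: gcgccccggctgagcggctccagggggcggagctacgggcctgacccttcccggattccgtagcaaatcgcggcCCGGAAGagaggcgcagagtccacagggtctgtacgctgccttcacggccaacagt
A total of 4 motifs were searched on both strands of the whole window. The core of nuclear respiratory factor 1, GCGCA and GCGC with any 1 base between them, stood in 4.25% of 33469 promoters and in 1 of the 9 members, Ndufaf5, where it begins at position -15 and, being a palindrome, reads on both strands. The ETS core CCGGAAG stood in 8.75% of all promoters and in 2 members, at position -56 of Trmt5 and at position 18 of Nsun3. The YY1 core AAGATGGC stood in 3.17% of all promoters and in 1 member, Coq5. The half-site of the estrogen-related receptors, TCAAGGTCA, stood in 0.433% of all promoters and in 0 of the 9. None of the motifs was shared by the 3 members shown that rose under both siRNAs. The median GC content of the members' windows was 54.3%, against 51.7% over all windows. These shares and this median cover every RefSeq window of that length, not only those of genes in the deposited tables. These matches describe letters in a window and were not tested as binding sites.

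The libraries held between 24770972 and 28709049 estimated counts. The carrier itself was checked first, because it tests the labels. Slc25a26 stood at 33.7, 32.2 and 29.4 CPM (library-size-normalised counts, TMM-scaled) in the siNeg libraries and at 15.7, 14.7 and 14.7 CPM after knockdown (siSlc25a26), a log2 fold change of -1.08 ± 0.0798 (SE; adjusted p = 1.08e-05). In the siNeg.PE libraries it stood at 114, 106 and 86.9 CPM, whereas those labelled siSlc25a26.PE gave 101, 104 and 98.2 CPM, where the groups overlapped and the log2 fold change was -0.0062 ± 0.101 (adjusted p = 0.969). The lower level of the target was therefore seen without PE and not in the libraries labelled siSlc25a26.PE, and every comparison under PE below rests on those 3 libraries. No fit without them exists for that comparison or for PE in siSlc25a26 cells. PE raised the hypertrophy markers Nppa and Nppb, the natriuretic peptide genes, by 4.63 and 5.37 on the log2 scale in siNeg cells. In siSlc25a26 cells the rises were 4.51 and 5.32. Both markers were also higher with siSlc25a26 than with siNeg (adjusted p at most 0.000562). Those differences were 1.14 and 1.97 without PE and 1.02 and 1.91 under PE.

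The summed levels of fibroblast and immune markers and an antiviral programme moved with the groups. The summed level of 10 cardiomyocyte markers ranged over 21754 to 24263 CPM in siNeg, 24544 to 26087 in siNeg.PE, 19174 to 22295 in siSlc25a26 and 24309 to 25589 in siSlc25a26.PE. The sum of 10 fibroblast markers ranged over 21939 to 23999 CPM, 11825 to 12287, 12446 to 14003 and 8687 to 9522 in the same order, so it was highest in siNeg and lowest in siSlc25a26.PE. Such a sum weighs the most abundant markers most. Without PE, 7 of the 10 fibroblast markers were lower and 1 was higher with siSlc25a26, and under PE 8 were lower and 1 higher. With PE, 5 were lower and 2 higher in siNeg cells, and 4 were lower and 1 higher in siSlc25a26 cells. The sum of 10 immune markers ranged over 110 to 135 CPM in siNeg and 41.8 to 48.4 CPM in siSlc25a26.PE, with Cd3e under 3 counts in every library, and that of 8 endothelial markers stayed between 26.7 and 33.5 CPM in all groups. The sum of 15 interferon response genes was 336 to 390 CPM in siNeg and 249 to 277 CPM in siNeg.PE, against 9486 to 10262 CPM in siSlc25a26 and 5742 to 6327 CPM in siSlc25a26.PE. The part of these shifts in the results below was not tested.

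Levels between genes were compared in FPKM, which scales by length. In siNeg cells, Coq3 was the most abundant at 23.4 ± 1.21 FPKM (SD, n = 3), followed by Ndufaf5 at 21.8 ± 1.56, Coq5 at 21.1 ± 1.61, Lias at 17.6 ± 1.04, Nsun4 at 12.0 ± 0.635, Ndufaf7 at 7.34 ± 0.566, Trmt5 at 6.0 ± 0.475, Tfb1m at 5.24 ± 0.296 and Trmt10c at 4.93 ± 0.400. Neighbours whose libraries overlapped, and whose order was therefore not resolved, were Coq3 and Ndufaf5, Ndufaf5 and Coq5, Trmt5 and Tfb1m, and Tfb1m and Trmt10c. Nsun3 stood far below the rest at 0.263 ± 0.104 FPKM, from 5.47 to 11.0 counts per library, and it was last in all 4 groups. The coenzyme Q methyltransferases, Ndufaf5 and Lias made up the upper 4 places in every group. In the siSlc25a26.PE libraries Ndufaf5 was first at 27.6 ± 0.199 FPKM, with no overlap with the next gene. Coq5 and Coq3, at 22.7 ± 0.837 FPKM, overlapped there. So did each pair of neighbours from Ndufaf7, through Nsun4 at 7.86 ± 0.515 FPKM, Trmt10c and Tfb1m, to Trmt5. The order within each such pair was not resolved. Every Ndufaf7 library (8.16 FPKM or more) nevertheless lay above every library of Trmt10c (up to 7.64), Tfb1m and Trmt5. Every Nsun4 library (7.39 FPKM or more) lay above every library of Tfb1m (up to 7.04) and Trmt5.

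**Figure D1:**
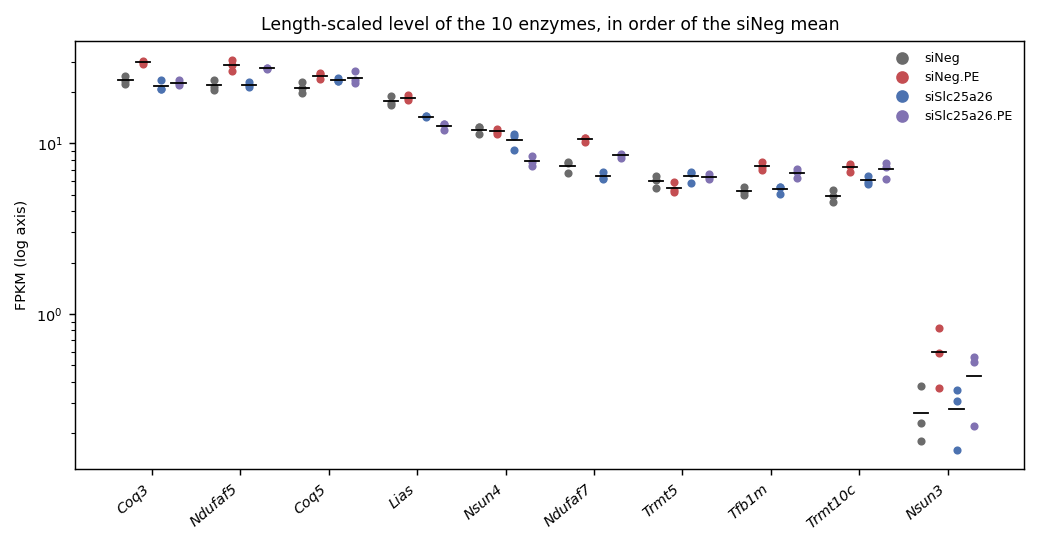
FPKM of the 10 enzymes (log axis) in every library of the 4 groups, with a bar at each group mean (n = 3), in order of the siNeg mean. Nsun3 lies below 1 FPKM in all 12 libraries and the other 9 lie above 4 FPKM.

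The first comparison asks how PE changed these genes in cells with the control siRNA. Of the 10 members, 7 were higher with PE at an adjusted p under 0.05 and 0 were lower, where 25.2% of the 13719 genes tested were higher and 24.3% lower. Their median log2 fold change was 0.41, against 0.000158 over all genes tested. Nsun3, Tfb1m and Trmt10c had the largest rises, while Nsun4, Trmt5 and Lias did not pass. With a fold over 1.5 also required, 3 members were called, Tfb1m, Trmt10c and Nsun3, beside 20.7% of all genes.

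Among the ribosomal RNA enzymes, Tfb1m (gene identifier 308140), which dimethylates a pair of adjacent adenosines of the small ribosomal subunit RNA, stood at 9.59, 10.4 and 8.71 CPM in siNeg and 13.9, 13.9 and 15.8 CPM in siNeg.PE. Every PE library lay above every control library. The log2 fold change was 0.61 ± 0.107 (adjusted p = 0.00236). Nsun4 (298426), which methylates a cytosine of the same RNA and joins Mterf4 in assembling the ribosome, stood at 29.9, 27.1 and 29.6 CPM without PE and 29.1, 27.7 and 29.5 CPM with it. Those groups overlapped, and the log2 fold change was -0.0047 ± 0.0716 (adjusted p = 0.962).

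Among the transfer RNA enzymes, Trmt10c (304012), which methylates purines near the start of the molecule and is a subunit of mitochondrial RNase P, stood at 14.0, 15.0 and 16.3 CPM without PE and 22.1, 24 and 22.4 CPM with it. The groups were separate, and the log2 fold change was 0.60 ± 0.0876 (adjusted p = 0.00102). Nsun3 (100360437), which methylates the wobble cytosine of the methionine transfer RNA, stood at 0.184, 0.234 and 0.408 CPM without PE and 0.682, 0.927 and 0.402 CPM with it. Replicate 3 of the PE libraries lay inside the control range, so the groups overlapped. Its log2 fold change of 1.27 ± 0.444 had an adjusted p of 0.0425 that rose to 0.0920 in DESeq2, 0.0594 with no filter on low counts, and to between 0.0763 and 0.162 when siNeg replicate 1 or 2 or siNeg.PE replicate 1 or 2 was left out. Trmt5 (362754), which methylates the guanosine beside the anticodon, stood at 10.1, 11.0 and 9.26 CPM against 9.39, 9.04 and 10.2 CPM, a log2 fold change of -0.085 ± 0.105 (adjusted p = 0.531).

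Both coenzyme Q methyltransferases were higher with PE. Coq3 (29309), which methylates the hydroxyl groups of the ring, stood at 26.1, 29.3 and 27.0 CPM in siNeg and 35.8, 35.4 and 35.8 CPM in siNeg.PE. The PE libraries were tightly grouped and all above the controls, with a log2 fold change of 0.38 ± 0.0656 (adjusted p = 0.00216). Coq5 (304542), which methylates a ring carbon, stood at 33.4, 30.8 and 28.5 CPM against 38.9, 38.7 and 35.0 CPM. Its groups were separate and its log2 fold change was 0.28 ± 0.0793 (adjusted p = 0.0187), which rose to between 0.0505 and 0.0773 without siNeg replicate 2 or 3 or siNeg.PE replicate 1 or 2.

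The 2 complex I enzymes also rose. Ndufaf7 (298748), an arginine methyltransferase of complex I assembly, stood at 17.3, 17.6 and 15.1 CPM in siNeg and 25.6, 23.6 and 24.6 CPM in siNeg.PE, a log2 fold change of 0.56 ± 0.0837 (adjusted p = 0.00108). Ndufaf5 (296190), which has a SAM-binding fold and modifies an arginine of Ndufs7, stood at 20.2, 23.4 and 20.7 CPM against 31.8, 28.9 and 26.5 CPM, a log2 fold change of 0.44 ± 0.0877 (adjusted p = 0.00413). Neither gene's groups overlapped. Lias (305348) stood at 24.7, 27.2 and 24.4 CPM against 28.2, 26.8 and 27.5 CPM. Those groups overlapped, and the log2 fold change was 0.11 ± 0.0688 (adjusted p = 0.200). In all, 6 members had separate groups with PE higher and 0 with PE lower, beside 28.7% and 30.0% of all genes.

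**Figure D2:**
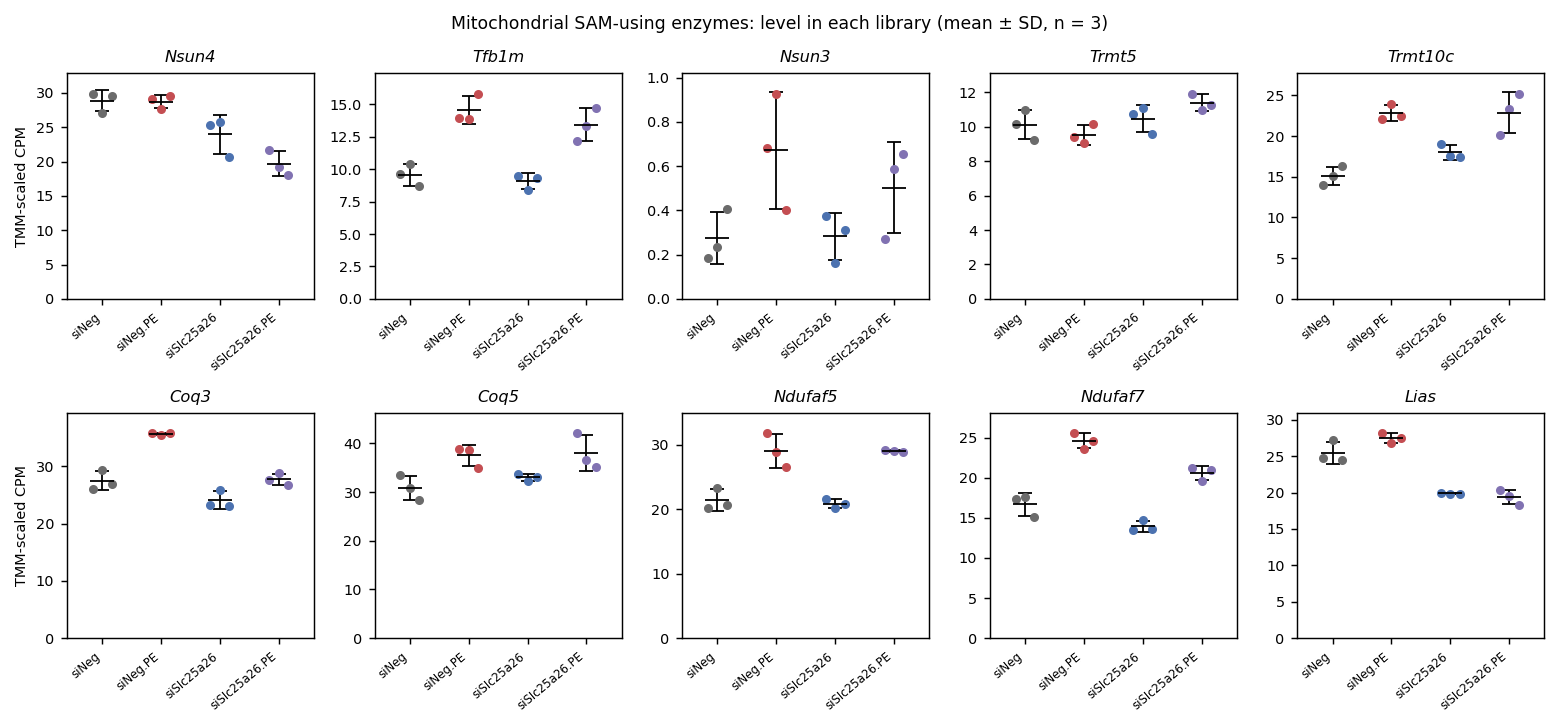
TMM-scaled CPM of the 10 enzymes in the 12 libraries, by group, with points for single libraries and bars for the mean ± SD (n = 3). Tfb1m, Ndufaf5 and Ndufaf7 are higher in both PE groups, and Lias is lower in both siSlc25a26 groups.

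The libraries labelled siSlc25a26.PE, in which the carrier was not lower than in siNeg.PE, were then compared with siSlc25a26, for the change with PE in cells given the siRNA against Slc25a26. Of the 10 members, 6 were higher and 0 lower, where 26.4% of 13776 genes were higher and 26.0% lower. The median log2 fold change of the members was 0.29, against -0.0036 over all genes. In edgeR 0 members were called at a fold over 1.5, beside 20.5% of all genes, although Tfb1m and Ndufaf7 lay just under that line. In DESeq2 the count was 1, and 7 members had an unadjusted p under 0.05 in edgeR.

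Tfb1m, Ndufaf7 and Ndufaf5 passed under all 9 other settings and all 6 fits that left out a library. Tfb1m stood at 9.51, 8.39 and 9.34 CPM in siSlc25a26 and at 12.2, 13.4 and 14.7 CPM in siSlc25a26.PE (log2 fold change 0.58 ± 0.102, adjusted p = 0.00130). Ndufaf7 stood at 13.5, 14.7 and 13.6 CPM against 21.2, 19.6 and 21.0 CPM (0.58 ± 0.0762, adjusted p = 0.000252). Ndufaf5 stood at 21.6, 20.2 and 20.8 CPM against 29.1, 29.1 and 28.9 CPM (0.50 ± 0.0622, adjusted p = 0.000185). In each of the 3 genes every PE library was above every library without PE.

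The smaller rises depended on the scale. Trmt10c stood at 19.1, 17.5 and 17.4 CPM against 20.1, 23.3 and 25.2 CPM (0.36 ± 0.0950, adjusted p = 0.0108), Coq3 at 23.2, 25.9 and 23.1 CPM against 27.7, 28.8 and 26.7 CPM (0.22 ± 0.0727, adjusted p = 0.0302), and Coq5 at 33.6, 32.3 and 33.1 CPM against 42.1, 36.6 and 35.2 CPM (0.22 ± 0.0758, adjusted p = 0.0359). All 3 had separate groups, but on the log2(FPKM + 1) scale, where limma put the median of all genes at -0.13, the adjusted p was 0.106, 0.401 and 0.635. Relative to that median they stood at 0.31, 0.19 and 0.16. Coq3 also lost its pass without siSlc25a26 replicate 1 or 3 or siSlc25a26.PE replicate 2 (adjusted p from 0.104 to 0.120), and Coq5 in 5 of the 6 fits that left out a library, all but the one without siSlc25a26.PE replicate 3 (up to 0.105).

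The remaining members did not pass. Nsun4 stood at 25.3, 25.8 and 20.7 CPM without PE and 21.7, 19.2 and 18.1 CPM with it, and the groups overlapped (-0.27 ± 0.105, adjusted p = 0.0575). It passed as lower in 5 of the 9 other settings, on the log2(FPKM + 1) scale with a log2 fold change of -0.37, or -0.25 relative to the median of all genes. Lias stood at 19.9, 19.9 and 19.8 CPM against 20.3, 19.5 and 18.3 CPM (-0.019 ± 0.0696, adjusted p = 0.840). On the log2(FPKM + 1) scale it passed as lower, at -0.17, which is -0.041 relative to that median. Trmt5 stood at 10.7, 11.1 and 9.58 CPM against 11.9, 11.0 and 11.3 CPM (0.14 ± 0.0930, adjusted p = 0.237), and Nsun3 at 0.372, 0.164 and 0.313 CPM against 0.270, 0.586 and 0.653 CPM (0.84 ± 0.457, adjusted p = 0.151). In all, 6 members had separate groups with PE higher, beside 28.9% of all genes, and 0 with PE lower, beside 32.2%.

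The PE effects in siNeg and in siSlc25a26 cells come from different libraries, so they could be set against each other. For 8 of the 10 members the sign was the same, as it was for 79.6% of 13506 genes, and 6 members rose and passed in both, Tfb1m, Trmt10c, Coq3, Coq5, Ndufaf5 and Ndufaf7, where 34.9% of all genes passed in both with 1 sign. Across the 10 genes, which are not independent replicates, Pearson's r between the 2 sets of log2 fold changes was 0.88, and across all genes it was 0.73. The difference between the effects was tested as the interaction over 12 libraries. Of the members, 0 of 10 passed in edgeR, with 0 at an unadjusted p under 0.05, where 11.2% of 14097 genes passed. That count of 1581 genes fell to 1049 without siNeg replicate 1 and 983 without siNeg.PE replicate 3. It fell to 944 without siSlc25a26 replicate 2 and 892 without siSlc25a26.PE replicate 2. It rose to 1806 without siNeg replicate 3 and to 1671 without siNeg.PE replicate 1, and fell without each of the other libraries. The largest differences were -0.45 ± 0.678 for Nsun3 (adjusted p = 0.711), -0.28 ± 0.133 for Nsun4 (0.194) and -0.26 ± 0.130 for Trmt10c (0.232). The value for Nsun3 ranged from -0.14 without siNeg.PE replicate 2 to -0.86 without siNeg replicate 3. limma on log2(FPKM + 1) passed 1 member, Coq3. For the members a difference between the PE effects was not detectable at 3 libraries a group, which does not show that the effects were alike. The carrier itself differed, at 1.06 ± 0.128 (adjusted p = 0.000466).

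**Figure D3:**
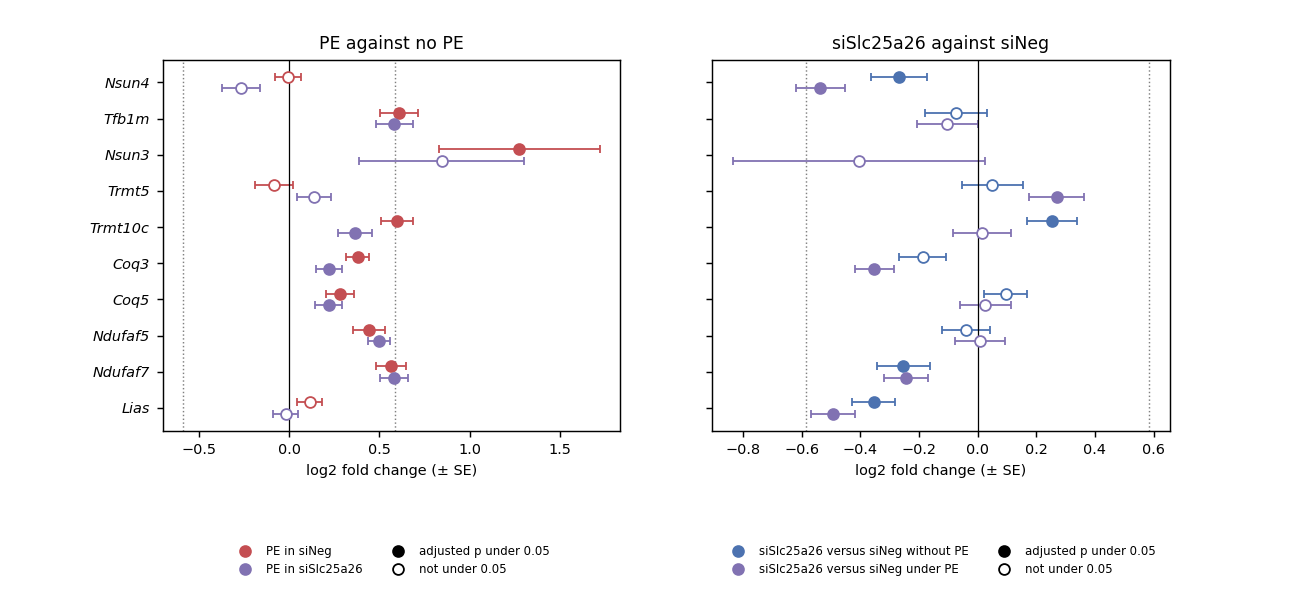
log2 fold change ± SE of each enzyme for PE against no PE (left) and for siSlc25a26 against siNeg (right, without and under PE). Filled points passed at an adjusted p under 0.05, and dotted lines mark a 1.5-fold change. Tfb1m and Ndufaf7 lie close to the line with PE under both siRNAs, and Lias, Nsun4 and Ndufaf7 are filled and below 0 in both comparisons on the right.

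The next comparison set siSlc25a26 against siNeg without PE, where the carrier was lower. Nsun3 was under the filter on low counts, and of the 9 members tested 1 was higher and 3 were lower, beside 23.3% and 21.7% of 13829 genes. In edgeR 0 members were called at a fold over 1.5, as in DESeq2, with 5 at an unadjusted p under 0.05, beside 16.1% of all genes. The median of the members was -0.074, against 0.015 over all genes. The clearest change was in Lias, which stood at 24.7, 27.2 and 24.4 CPM in siNeg and at 19.9, 19.9 and 19.8 CPM in siSlc25a26. All 3 knockdown libraries lay below all controls, and the log2 fold change was -0.35 ± 0.0735 (adjusted p = 0.00439). It passed in all 6 fits that left out a library and in all 9 other settings.

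The other changes were near the threshold. Nsun4 was lower, at 25.3, 25.8 and 20.7 CPM against 29.9, 27.1 and 29.6 CPM (-0.27 ± 0.0958, adjusted p = 0.0474), but it lost its pass whichever of the 6 libraries was left out (0.0530 to 0.123). Ndufaf7 was lower, at 13.5, 14.7 and 13.6 CPM against 17.3, 17.6 and 15.1 CPM (-0.25 ± 0.0903, adjusted p = 0.0458), and passed in 1 of those 6 fits, the one without siNeg replicate 3. Trmt10c was higher, at 19.1, 17.5 and 17.4 CPM against 14.0, 15.0 and 16.3 CPM (0.25 ± 0.0867, adjusted p = 0.0401), and likewise passed only without siNeg replicate 3. The groups of these 3 genes did not overlap, and neither did those of Coq3, lower at 23.2, 25.9 and 23.1 CPM against 26.1, 29.3 and 27.0 CPM (-0.19 ± 0.0794, adjusted p = 0.0830). Separate groups were seen in 4 members with siSlc25a26 lower and 1 higher, beside 27.3% and 29.2% of all genes. Tfb1m, Trmt5, Coq5 and Ndufaf5 overlapped between the groups, with log2 fold changes from -0.074 to 0.096 and adjusted p from 0.318 to 0.725.

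Under PE, the libraries labelled siSlc25a26.PE were compared with siNeg.PE. All 10 members were tested, and 1 was higher and 4 were lower, beside 20.1% of 13671 genes in each direction. The count called at a fold over 1.5 was 0 in edgeR and in DESeq2, with 5 at an unadjusted p under 0.05 in edgeR, beside 15.8% of all genes. The median of the members was -0.17, against -0.0028 over all genes. Nsun4, Lias and Coq3 were lower under all 9 other settings and all 6 fits that left out a library.

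Nsun4 stood at 29.1, 27.7 and 29.5 CPM in siNeg.PE, whereas those labelled siSlc25a26.PE gave 21.7, 19.2 and 18.1 CPM (-0.54 ± 0.0836, adjusted p = 0.00113). Lias stood at 28.2, 26.8 and 27.5 CPM against 20.3, 19.5 and 18.3 CPM (-0.49 ± 0.0744, adjusted p = 0.000953). Coq3 stood at 35.8, 35.4 and 35.8 CPM against 27.7, 28.8 and 26.7 CPM (-0.35 ± 0.0660, adjusted p = 0.00291). For each of these 3 genes, all libraries labelled siSlc25a26.PE lay below all siNeg.PE libraries. Slc25a26 itself did not pass a test between the same libraries, as given above.

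Ndufaf7 was lower at 21.2, 19.6 and 21.0 CPM against 25.6, 23.6 and 24.6 CPM (-0.24 ± 0.0754, adjusted p = 0.0293). Its adjusted p was 0.0609 in DESeq2 and up to 0.130 without siNeg.PE replicate 1 or 2 or siSlc25a26.PE replicate 2 or 3. Trmt5 was higher at 11.9, 11.0 and 11.3 CPM against 9.39, 9.04 and 10.2 CPM (0.27 ± 0.0941, adjusted p = 0.0474), with separate groups, but lost its pass in all 6 fits that left out a library (0.0572 to 0.151) and in 5 of 9 other settings. Trmt10c, Coq5, Ndufaf5 and Tfb1m had overlapping groups and log2 fold changes between -0.10 and 0.026. Nsun3 stood at 0.270, 0.586 and 0.653 CPM against 0.682, 0.927 and 0.402 CPM (-0.40 ± 0.431, adjusted p = 0.489), a value that ranged from -0.096 without siNeg.PE replicate 2 to -0.69 without siNeg.PE replicate 3. Separate groups were seen in 4 members lower and 1 higher, beside 26.7% and 25.1% of all genes.

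The comparisons without and under PE also come from different libraries. Of the 9 members tested in both, 8 had the same sign, as did 74.2% of 13508 genes, and 3 passed with the same sign in both, Lias, Nsun4 and Ndufaf7, all lower, where 25.1% of all genes passed in both with 1 sign. Across these 9 genes Pearson's r was 0.83, and across all genes 0.80. Tfb1m and Ndufaf5 were higher with PE under both siRNAs and overlapped between the siRNAs, while Lias was lower with siSlc25a26 with and without PE and overlapped between PE and no PE. Ndufaf7 showed both, with the highest level in siNeg.PE and the lowest in siSlc25a26.

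Likeness over the 12 libraries was described by Pearson's r of log2 CPM, with no test, because the libraries share 4 groups. Within the set, r was highest for Tfb1m with Ndufaf7 at 0.91 and with Ndufaf5 at 0.90, it was 0.83 for Lias with Nsun4, and it was lowest for Lias with Trmt5 at -0.58. Among 14096 genes, the nearest to Trmt10c was Scfd1 (0.99), to Lias Haus4 (0.99), to Ndufaf7 Xrcc6 (0.98), to Ndufaf5 Spink8 (0.98), to Coq3 Lyrm2 (0.98), to Nsun4 Acadl (0.97), to Tfb1m Selenoi (0.97), to Coq5 Jpt1 (0.95), to Trmt5 Magel2 (0.91) and to Nsun3 Slc25a24 (0.91). Acadl, a long-chain acyl-CoA dehydrogenase of mitochondrial fatty acid oxidation, ran beside Nsun4 with means of 315 CPM in siNeg, 316 in siNeg.PE, 259 in siSlc25a26 and 226 in siSlc25a26.PE. Magel2 was barely detected, with means of 0.389, 0.305, 0.447 and 0.490 CPM in the same order. Each nearest gene is the highest r out of 14096, so nearness alone does not show a shared role.

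The same comparisons were made for the other genes of these pathways. Over all genes tested, 25.2% were higher and 24.3% lower with PE in siNeg cells, 26.4% and 26.0% with PE in siSlc25a26 cells, 23.3% and 21.7% between the siRNAs without PE, and 20.1% in each direction under PE, with medians of 0.000158, -0.0036, 0.015 and -0.0028 in that order. The lists were not tested as sets. Of 8 partners of the RNA enzymes, such as the RNase P subunits Hsd17b10 and Prorp, 2 were higher and 1 lower with PE in siNeg cells and 0 higher and 3 lower in siSlc25a26 cells. Polrmt, the mitochondrial RNA polymerase, was called in both, at 27.8 ± 2.11 CPM (SD, n = 3) in siNeg and 16.8 ± 2.31 CPM in siNeg.PE (-0.73 ± 0.108, adjusted p = 0.00111), and it fell as well in siSlc25a26 cells (-0.75 ± 0.0858, adjusted p = 0.000110). Without PE 2 partners were higher and 1 lower with siSlc25a26, and under PE 1 was higher and 3 were lower. The medians of this list were 0.063, -0.057, 0.085 and -0.030 in the order just given. Of 17 other mitochondrial SAM-dependent enzymes, 15 were in the tables and 14 were tested. With PE 1 was higher and 4 lower in siNeg cells and 2 were higher and 5 lower in siSlc25a26 cells, where Mettl8, a transfer RNA methyltransferase, fell by 0.82 and Antkmt, which methylates a lysine of the adenine nucleotide carrier, fell by 0.68 on the log2 scale. With siSlc25a26, 1 was higher and 1 lower without PE, and 2 were higher and 3 lower under PE. Their medians were -0.049, -0.16, 0.037 and -0.058. Those of the members tested were 0.41, 0.29, -0.074 and -0.17 in the same order. The differences between these medians were not tested.

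Of 11 other genes of coenzyme Q synthesis, 4 were higher and 2 lower with PE under each siRNA. The medians of this list were 0.21 and 0.057 with PE and -0.20 and -0.25 between the siRNAs without and under PE. In siNeg cells Pdss1, which with Pdss2 makes the isoprenoid tail, rose from 7.95 ± 0.903 to 17.3 ± 1.70 CPM (1.12 ± 0.115, adjusted p = 0.000189), Coq4 rose by 0.93 ± 0.155 and Coq10b by 0.74 ± 0.0915. Coq8a, an ATPase of the synthesis complex, went the other way, from 496 ± 9.43 to 248 ± 17.4 CPM in siNeg cells and from 437 ± 14.4 to 123 ± 18.7 CPM in siSlc25a26 cells. Its fall was larger in siSlc25a26 cells (difference -0.83 ± 0.123, adjusted p = 0.00145). With siSlc25a26, 1 gene was higher and 5 were lower both without and under PE, and under PE Coq7, the hydroxylase of the last ring steps, fell by 0.63 ± 0.0781 and Coq8a by 1.00 ± 0.103. Coq3 passed under PE in the direction of these 5 genes.

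Of 16 genes of complex I assembly or its modified subunits, 14 were tested. With PE 4 were higher and 0 lower in siNeg cells and 3 higher and 1 lower in siSlc25a26 cells. Ndufaf4, another assembly factor, rose from 11.2 ± 0.962 to 25.1 ± 2.32 CPM in siNeg cells (1.16 ± 0.107, adjusted p = 0.000112). With siSlc25a26, 1 was higher and 4 were lower without PE, and 0 were higher and 6 lower under PE. The medians were 0.074 and 0.064 with PE and -0.15 and -0.21 between the siRNAs. Tmem126b, an assembly factor of the membrane arm, fell from 21.2 ± 1.04 to 14.0 ± 0.648 CPM without PE (-0.60 ± 0.0795, adjusted p = 0.000390) and from 21.3 ± 1.47 to 13.5 ± 0.984 CPM under PE. Nubpl, an iron-sulfur cluster carrier, fell by 0.78 ± 0.131 under PE. Ndufs7, the substrate of Ndufaf5, was chosen after its values were seen. With siSlc25a26 its log2 fold change was -0.40 ± 0.0582 without PE (adjusted p = 0.000622) and -0.31 ± 0.0952 under PE (adjusted p = 0.0283), while it did not pass with PE under either siRNA (adjusted p = 0.504 and 0.691).

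Of 19 genes of lipoate attachment and mitochondrial fatty acid synthesis, 7 were higher and 2 lower with PE in siNeg cells and 8 higher and 2 lower in siSlc25a26 cells. Called among them were Dbt, the lipoylated core of the branched-chain ketoacid dehydrogenase, which rose by 0.82 ± 0.130 in siNeg cells, Dlat, that of pyruvate dehydrogenase, which rose by 0.60 ± 0.0568 in siSlc25a26 cells, and Cbr4, a reductase of fatty acid synthesis, which fell by 0.80 ± 0.150 in siSlc25a26 cells. With siSlc25a26, 4 were higher and 8 lower without PE, and 3 were higher and 7 lower under PE. The medians were 0.18 and 0.077 with PE and -0.17 and -0.18 between the siRNAs. Dbt rose by 0.70 ± 0.0763 without PE and Cbr4 fell by 0.75 ± 0.118 under PE. Lias passed as lower in both of these comparisons.

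**Figure D4:**
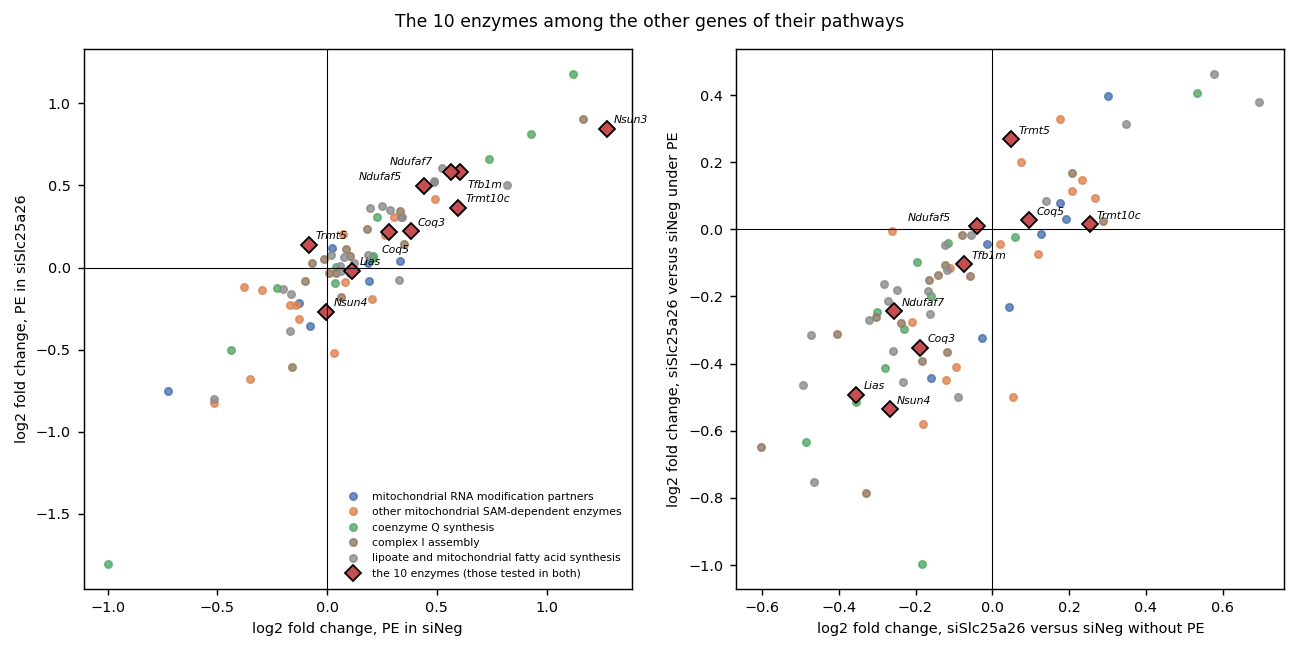
log2 fold change of the 10 enzymes (diamonds, those tested in both) and of the other genes of their pathways (circles, by list) for PE in siNeg against PE in siSlc25a26 cells (left) and for siSlc25a26 against siNeg without against under PE (right). Lias and Nsun4 lie among the lowest of the enzymes on the right, and Coq8a is the lowest circle on the vertical axis in both panels.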

How the data were processed

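RNA of 12 NRVM cultures was sequenced, and the groups and times follow the labels. These name siSlc25a26 where the text of the study describes another knockdown. They also give shorter times than that text, both before PE and with it. The authors deposited estimated counts per gene (between 20.8% and 21.9% of values not whole) and FPKM values. The submitters' processing notes name HISAT, Bowtie2 and the rat build Rnor_6.0, with versions and strand setting not given in the sources used here. Of 18469 gene identifiers 16962 (91.8%) matched RefSeq, and all 10 members did. Neighbouring or overlapping genes were not separated.

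From these, counts were rounded and fitted in edgeR 4.0.16 (R 4.3.3) with TMM factors, filterByExpr and quasi-likelihood tests on the 6 libraries compared, or all 12 for the difference between PE effects, with Benjamini-Hochberg adjustment over all genes tested. Passing means an adjusted p under 0.05, and called also a fold over 1.5. The study's methods name limma with these thresholds. SE is the log2 fold change divided by the root of F. Alternatives were DESeq2 1.42.0, limma 3.58.1 (voom, and log2 of FPKM plus 1 or 0.1, where a fold understates the change of low genes), DESeq2 size factors, no filter, 10 counts in every library, a replicate block, 1 fit of all libraries, and leaving out each library. Scripts were tested on simulated data. No replicates were near-identical (lowest chi-square per gene 5.34). Named genes were all members, Slc25a26, Nppa, Nppb, up to 4 called genes per list and comparison with the largest change, each member's nearest gene and, outside this rule and chosen after its values were seen, Ndufs7. The members and lists were chosen with earlier results of these data known.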

Additional observations from a re-analysis of the deposited data

How the results depend on the processing

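Over the alternatives, member values kept their direction and side of the threshold in 657 cases, lost a pass in 68, gained one in 11 and turned sign in 44, none of them past the test on either side. With limma on log2(FPKM + 1) and log2(FPKM + 0.1), 0 and 1 members were called with PE in siNeg cells against 3, and the median of all genes moved to -0.13 and -0.17 with PE in siSlc25a26 cells and, for the interaction of PE with the siRNA, to -0.11 and -0.14. On the log2(FPKM + 1) scale 2015 genes were higher and 5653 lower with PE in siSlc25a26 cells, against 3634 and 3585, 2103 and 3384 between the siRNAs under PE, against 2744 and 2744, and 560 and 1759 for the difference, against 773 and 808. On that scale 1590 genes were called with PE in siNeg cells against 2838, 1284 between the siRNAs without PE against 2229, and 1379 under PE against 2162. With 0.1 added in place of 1 the counts were 2652, 2164 and 2181. The FPKM fits used the deposited FPKM without TMM factors. The cause was not tested.

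With PE in siSlc25a26 cells 1 member was called with DESeq2, with its size factors and with no filter, against 0. Between the siRNAs without PE 2 members passed with DESeq2, both FPKM scales, no filter and the replicate block, against 4. Under PE 3 passed with DESeq2 against 5. For the difference between PE effects 1 passed on both FPKM scales against 0.

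Leaving out 1 library at a time gave 5 to 7 members passing and 2 to 3 called with PE in siNeg cells. With PE in siSlc25a26 cells it gave 4 to 6 passing and 0 to 2 called. Between the siRNAs it gave 1 to 3 passing without PE, and 3 to 4 passing and 0 to 1 called under PE. It turned the sign of values near 0, with ranges for PE in siNeg cells of -0.054 to 0.032 (Nsun4), for PE in siSlc25a26 cells of -0.049 to 0.019 (Lias), between the siRNAs without PE of -0.030 to 0.11 (Trmt5) and -0.084 to 0.011 (Ndufaf5), under PE of -0.048 to 0.10 (Trmt10c), -0.050 to 0.093 (Coq5) and -0.078 to 0.081 (Ndufaf5), and, in the interaction, of -0.11 to 0.025 (Tfb1m), -0.027 to 0.098 (Ndufaf5) and -0.043 to 0.053 (Ndufaf7).

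Other sign changes were also near 0. Nsun4 with PE in siNeg cells became 0.0021 in DESeq2, 0.0022 with its size factors and 0.0075 in the fit of all libraries. On the FPKM scales with 1 and 0.1 added, Trmt5 with PE in siSlc25a26 cells became -0.016 and -0.018, Tfb1m and Ndufaf5 without PE became 0.034 and 0.039, and 0.018 and 0.019, and Trmt10c, Coq5 and Ndufaf5 under PE became -0.039 and -0.045, -0.041 and -0.043, and -0.052 and -0.053. For the difference, Ndufaf5 became -0.070 and -0.072 on those scales and Ndufaf7 0.020 in DESeq2 and with its size factors. With 10 counts in every library, Trmt10c and Ndufaf5 under PE became -0.0031 and -0.0091.

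Same-numbered libraries did not deviate together in every pair (correlations from -0.091 to 0.22). In 0 of 4 comparisons was every library nearest to its own number, so the numbers were not taken as pairs. The correlations were all above 0 with PE in siNeg cells (mean 0.12) and between the siRNAs under PE (mean 0.13). There the replicate block raised the genes passing from 6785 to 8462 and from 5488 to 6659. With PE in siSlc25a26 cells it lowered them from 7219 to 6326, and between the siRNAs without PE from 6221 to 6021. With the replicate block 7, 6, 2, 5 and 0 members passed, in the order of the report with the difference last, against 7, 6, 4, 5 and 0. Nsun4 and Trmt10c lost their pass without PE (adjusted p = 0.0683 and 0.0684), and with PE in siSlc25a26 cells Coq5 lost and Nsun4 gained one (0.0533 and 0.0401).

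Depth limits Nsun3 above all, with 5.10 to 24.2 counts per library. The libraries labelled siSlc25a26.PE do not show the lower Slc25a26 of their label, and the fibroblast and interferon lists differ between the groups, and these shifts and the siRNA cannot be told apart.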
